A study of Mus musculus with 12 samples.

Results

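Lcn2, Spp1, Clu, Havcr1, Cd44, Krt8, Krt18, Anxa2, Cdkn1a and Sox9 are 10 genes that kidney research uses as markers of tubular injury and repair. They were taken by name from the 47719 genes of a deposited expression table of mouse kidney cortex, and all 10 were found there and passed the filter on low values (at least 1 FPKM in at least 3 libraries), as did 14109 genes in all. The study sequenced RNA of 12 libraries, 3 in each of 4 groups. EtOH4hLPS mice had drunk a Lieber-DeCarli liquid diet with ethanol for 6 weeks, ending at 6% ethanol, and received 10 mg/kg of E. coli lipopolysaccharide (LPS) intraperitoneally 4 h before sacrifice. PF4hLPS mice had been pair-fed the same calories with maltose-dextrin in place of ethanol and received the same LPS injection. EtOH mice and PF mice had the ethanol diet and the pair-fed diet with a saline injection. All mice were male C57BL6/J, 8 weeks old per the labels, and the labels name no transgene. The labels number the replicates but do not say that each library came from a different mouse, so p-values measure the spread between libraries, which may be technical.

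A tubule cell that is injured loses its transport function, spreads over the bare basement membrane, may divide and then differentiates again. During that sequence it switches on or raises a set of genes, some of which a healthy tubule expresses little. Lcn2 encodes neutrophil gelatinase-associated lipocalin, which binds bacterial siderophores, and Havcr1 encodes kidney injury molecule 1, a receptor for phosphatidylserine on dying cells. Both proteins are measured in urine as signs of acute kidney injury. LPS, a component of the outer membrane of Gram-negative bacteria, acts through the receptor TLR4 and is used to model the kidney injury of sepsis. The design asked how LPS and ethanol, alone and together, change RNA levels in the kidney.

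The measured unit was FPKM, fragments per kilobase of transcript scaled for library size. Levels of genes of different length can thus be set side by side. Summed FPKM ran from 1005219 in EtOH replicate 1 to 1935824 in PF4hLPS replicate 2. Size factors from median ratios between libraries lay at 0.974 to 1.033, so the table was already near level by that measure. Fragment totals are not in the table. Steps between low values gave each library's depth, as the table scaled it, relative to PF replicate 1. This depth ran from 0.49 in PF4hLPS replicate 2 to 1.206 in PF replicate 3. The 6 LPS libraries lay at 0.763 or less, and so did the saline library EtOH replicate 2, at 0.722. Replicates of a group correlated at r of 0.9141 to 0.9647 over the tested genes. Libraries PF4hLPS replicate 2, EtOH4hLPS replicate 1 and PF replicate 1 stood apart in that genes with more G and C read lower there, with slopes of -0.446, -0.329 and -0.274 log2 units per 10 percentage points of GC, against -0.072 to 0.235 in the other 9. The cortex label was set against markers of proximal tubule and of urothelium. The 12 markers of differentiated proximal tubule summed to between 7801 and 10284 FPKM per library, and those of urothelium to at most 10.7 FPKM. This check held no markers of medulla or papilla, so the presence of such tissue was not tested.

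LPS was followed by a rise of 7 of the 10 markers in both diets. Lcn2, Spp1, Clu, Havcr1, Cd44, Cdkn1a and Sox9 rose in EtOH4hLPS against EtOH and in PF4hLPS against PF, while Krt8, Krt18 and Anxa2 did not pass the test in either diet, and no marker fell. Over all tested genes, 10.7% rose and 6.39% fell with LPS in ethanol-fed mice, and 11.3% rose and 6.89% fell in pair-fed mice (limma on log2(FPKM + 1), Benjamini-Hochberg adjusted p under 0.05). With each library scaled to the same total FPKM, 972 genes rose and 1781 fell in ethanol-fed mice and 858 were higher and 2590 lower in pair-fed mice, with the 7 markers again higher in both diets. The median log2 fold change of the 10 markers was 2.43 in ethanol-fed and 2.60 in pair-fed mice, beside 0.018 and -0.007 over all tested genes. The table was already near level between libraries by median ratios, so all-gene medians near 0 follow in part from its scaling. Of the 7, Lcn2, Havcr1, Cdkn1a, Sox9 and Cd44 reached 1 FPKM in fewer than 3 of the 6 saline libraries, so these 5 were in the test only through their LPS libraries. The tissue was taken in bulk, so more RNA per cell and more cells of a type cannot be told apart.

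**Figure D1:**
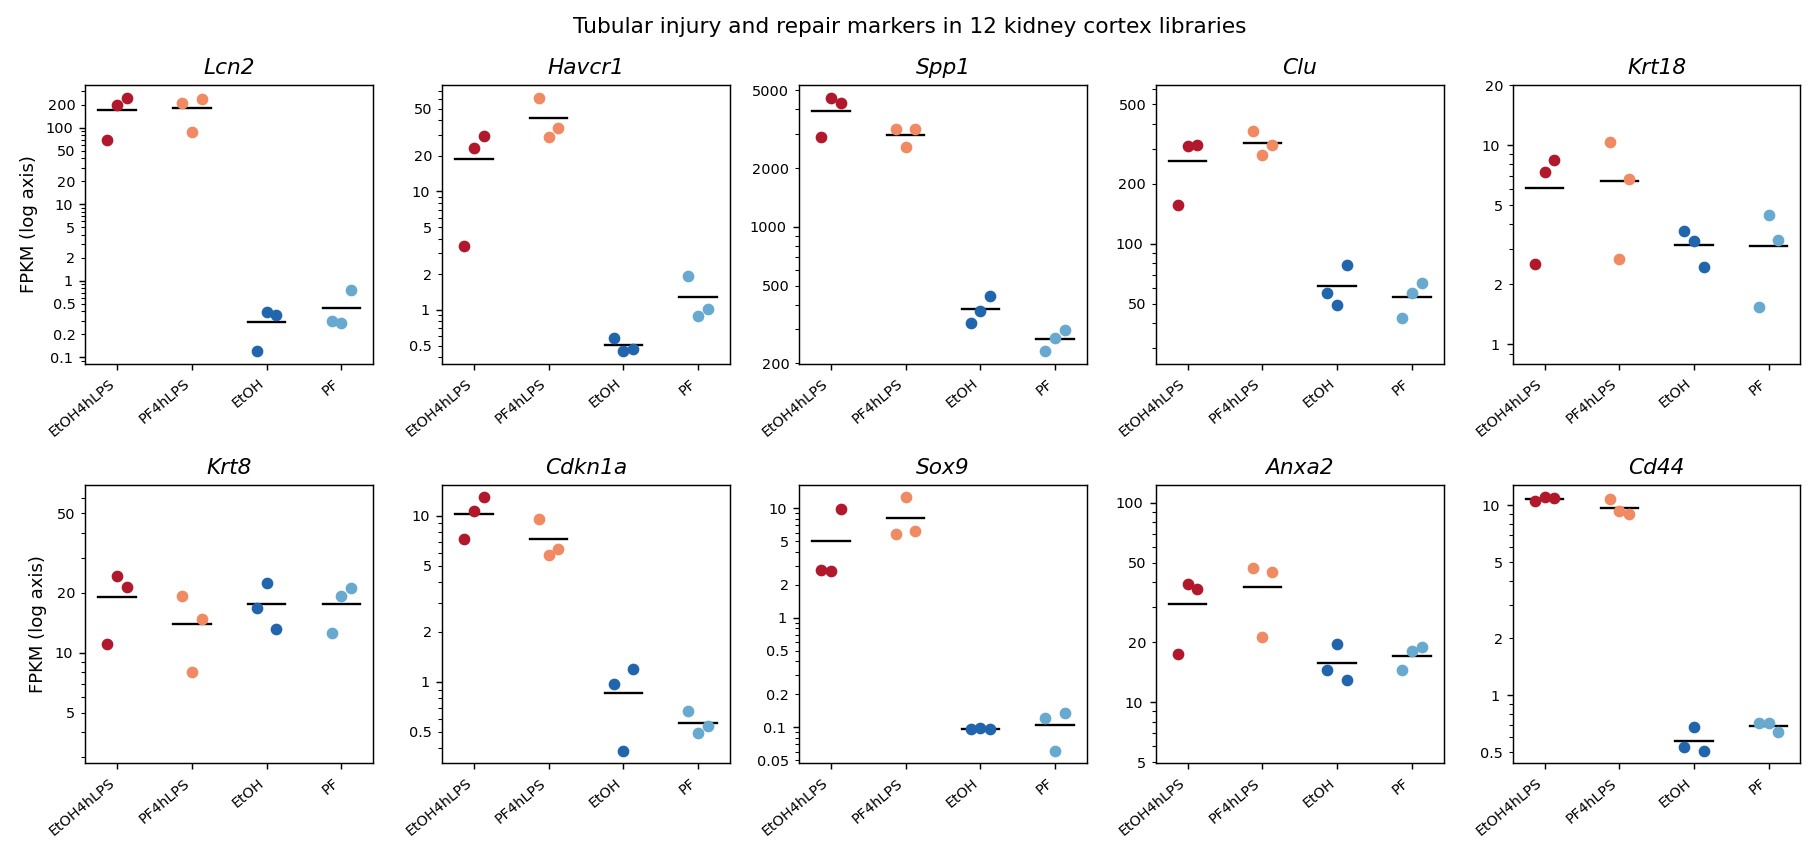
FPKM of the 10 markers on log axes, 1 panel per gene, with 1 point per library and a bar at the group mean, for EtOH4hLPS, PF4hLPS, EtOH and PF (n = 3 each). In the panels of Lcn2, Havcr1, Spp1, Clu, Cdkn1a, Sox9 and Cd44 every LPS library lies above every saline library, whereas in the panels of Krt8 and Krt18 the groups overlap.

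Among the secreted products, Lcn2 (ENSMUSG00000026822, mm10 chr2:32384633-32388252, minus strand) had the largest fold change of the 10. It read 68.8, 201 and 247 FPKM in EtOH4hLPS and 212, 88.1 and 236 FPKM in PF4hLPS, against 0.12, 0.385 and 0.353 FPKM in EtOH and 0.294, 0.283 and 0.75 FPKM in PF. The lowest LPS library was thus far above the highest saline library. The log2 fold change was 6.89 ± 0.46 in ethanol-fed mice (SE, adjusted p = 7.98e-07) and 6.85 ± 0.46 in pair-fed mice (adjusted p = 8.66e-07). By size of the fold change Lcn2 was rank 7 of 14109 genes in ethanol-fed mice and rank 8 in pair-fed mice. By level, it was rank 697 in EtOH4hLPS and 686 in PF4hLPS, against 13769 in EtOH and 13702 in PF.

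Spp1 (ENSMUSG00000029304, chr5:104435118-104441050, plus strand) encodes osteopontin, a secreted phosphoprotein that binds integrins and CD44 and attracts macrophages. It was the most abundant marker in every group. Its level was 2885, 4590 and 4321 FPKM in EtOH4hLPS and 3174, 2568 and 3168 FPKM in PF4hLPS, against 322, 369 and 444 FPKM in EtOH and 231, 270 and 296 FPKM in PF. The groups with and without LPS were well apart, and Spp1 ranked 36 of 14109 genes by level in EtOH4hLPS and 58 in PF4hLPS, against 223 in EtOH and 372 in PF. Its log2 fold change with LPS was 3.36 ± 0.23 in ethanol-fed mice (adjusted p = 8.81e-07) and 3.48 ± 0.23 in pair-fed mice (adjusted p = 6.54e-07). Spp1 overlaps Gm42793 on the same strand, whose highest value was 55.6 FPKM, and how shared fragments were divided is not stated in the labels.

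Clu (ENSMUSG00000022037, chr14:65968483-65981547, plus strand) encodes clusterin, an extracellular chaperone. Clu had 156, 308 and 313 FPKM in EtOH4hLPS and 369, 280 and 311 FPKM in PF4hLPS, against 56.4, 49.0 and 77.9 FPKM in EtOH and 42.5, 56.4 and 63.2 FPKM in PF. It was already expressed in saline kidneys, where only Spp1 of the 10 was more abundant, and its ratio of means was 4.24 in ethanol-fed and 5.92 in pair-fed mice. On the log2 scale the fold change was 2.02 ± 0.29 (adjusted p = 0.00041) in ethanol-fed mice and 2.55 ± 0.29 (adjusted p = 5.78e-05) in pair-fed mice.

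At the cell surface, Havcr1 (ENSMUSG00000040405, chr11:46735080-46779578, plus strand) rose strongly, with the largest standard error of the 10. It read 3.46, 23.3 and 29.1 FPKM in EtOH4hLPS and 61.9, 28.6 and 34.6 FPKM in PF4hLPS, against 0.584, 0.45 and 0.471 FPKM in EtOH and 1.92, 0.897 and 1.02 FPKM in PF. EtOH4hLPS replicate 1 lay far below the other libraries of its group and still above all saline libraries. Relative to saline the log2 fold change was 3.31 ± 0.60 (adjusted p = 0.00309) in ethanol-fed mice and 4.18 ± 0.60 (adjusted p = 0.00062) in pair-fed mice. Without EtOH4hLPS replicate 1 the value in ethanol-fed mice was 4.17 (adjusted p = 3.38e-06).

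Cd44 (ENSMUSG00000005087, chr2:102811141-102901665, minus strand) encodes the hyaluronan receptor, which also binds osteopontin. Cd44 stood at 10.6, 11 and 10.9 FPKM in EtOH4hLPS and 10.7, 9.27 and 9.01 FPKM in PF4hLPS, against 0.534, 0.681 and 0.51 FPKM in EtOH and 0.715, 0.714 and 0.641 FPKM in PF. The LPS libraries were nearly level with each other, and the standard error of its fold changes was the smallest of the 10. Relative to saline the log2 fold change was 2.91 ± 0.14 in ethanol-fed mice (adjusted p = 3.12e-08) and 2.66 ± 0.14 in pair-fed mice (adjusted p = 5.2e-08). An snRNA gene, Gm23731, lies inside Cd44 on the other strand with up to 33.5 FPKM, and its share in the Cd44 values was not tested.

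**Figure D2:**
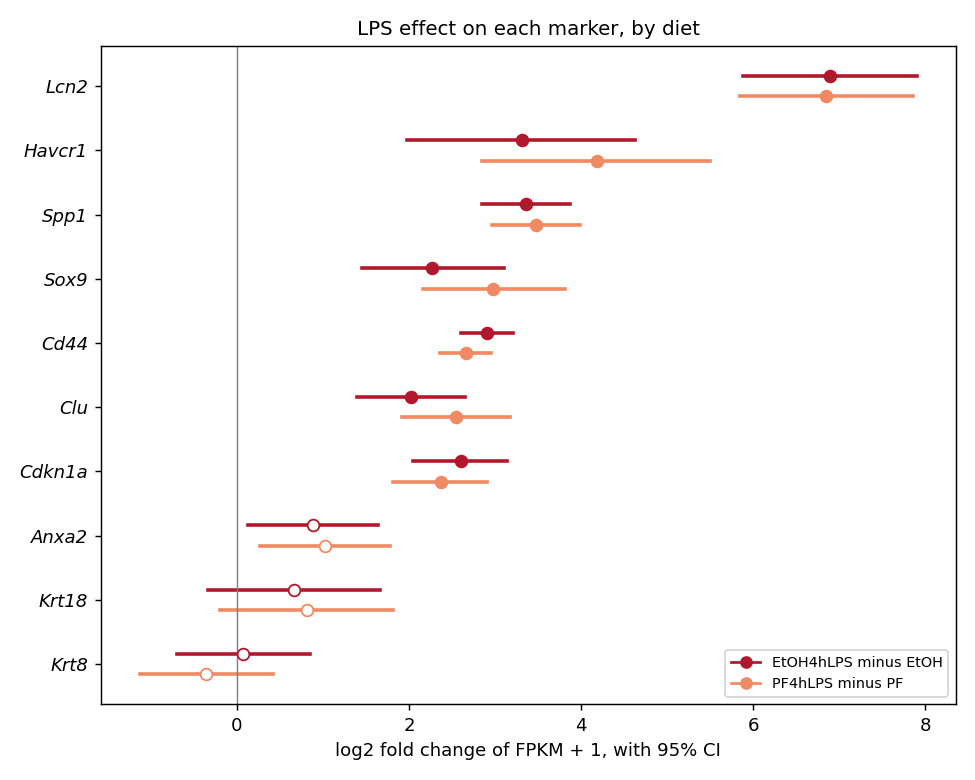
Log2 fold change of FPKM + 1 with LPS for each marker, with its 95% confidence interval, for EtOH4hLPS minus EtOH and PF4hLPS minus PF, where filled points passed the adjusted p of 0.05 and open points did not. Lcn2 lies at 6.89 and 6.85, Krt8 lies near 0, and the intervals of Anxa2 lie above 0 though its points are open.

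Of the nuclear regulators, Cdkn1a (ENSMUSG00000023067, chr17:29090976-29100727, plus strand) encodes a cyclin-dependent kinase inhibitor that halts the cell cycle and is a classical target of p53. Cdkn1a measured 7.21, 10.6 and 12.9 FPKM in EtOH4hLPS and 9.60, 5.78 and 6.32 FPKM in PF4hLPS, against 0.971, 0.385 and 1.20 FPKM in EtOH and 0.673, 0.494 and 0.54 FPKM in PF. No LPS library came near the saline range. Its log2 fold change was 2.60 ± 0.25 in ethanol-fed mice (adjusted p = 1.52e-05) and 2.37 ± 0.25 in pair-fed mice (adjusted p = 3.25e-05).

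The RefSeq tables used here held promoter windows for 8 of the 10 markers, with 12 windows in all. The 250 bases before each start were searched on both strands for TATAAA, for the AP-1 motif TGANTCA, for the STAT motif TTCNNNGAA and, by name, for the NF-kB motif and the p53 half-site. The first Cdkn1a window and the Anxa2 window are shown because they were the 2 that held a motif of a stress-activated factor. Both are on the plus strand of GRCm38.p6, at chr17:29090729-29090978 and chr9:69453433-69453682, with motif matches in capitals. Positions count back from the RefSeq start of each window. Both windows run past the GENCODE gene starts, which are 29090976 for Cdkn1a and 69453620 for Anxa2. The TATAAA of the Anxa2 window thus lies inside the gene as GENCODE draws it.
Cdkn1a: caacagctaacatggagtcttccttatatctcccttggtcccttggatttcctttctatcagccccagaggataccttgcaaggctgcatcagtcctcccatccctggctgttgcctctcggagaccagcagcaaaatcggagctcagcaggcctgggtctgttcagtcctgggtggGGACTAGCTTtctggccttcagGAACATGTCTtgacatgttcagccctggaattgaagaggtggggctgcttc
Anxa2: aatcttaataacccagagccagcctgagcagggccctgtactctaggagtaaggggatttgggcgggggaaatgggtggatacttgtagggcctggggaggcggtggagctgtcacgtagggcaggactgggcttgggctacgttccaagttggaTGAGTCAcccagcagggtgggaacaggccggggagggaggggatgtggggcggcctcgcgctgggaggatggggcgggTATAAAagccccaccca
The Cdkn1a window held 2 p53 half-sites, GGACTAGCTT at -73 to -64 and GAACATGTCT at -51 to -42. The p53 half-site and AP-1 motifs read the same on both strands, so any match to them counts on both. A second Cdkn1a window, of a start farther downstream, held none of the searched motifs. The Anxa2 window held the AP-1 match TGAGTCA at -95 to -89 and TATAAA at -17 to -12. A Spp1 window held TATAAA at -211 to -206. Of 32851 windows of the same length, 7.13% held a p53 half-site, 6.75% an AP-1 motif, 7.02% a STAT motif, 3.9% an NF-kB motif and 12.4% TATAAA, and these matches describe letters, not bound sites.

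Sox9 (ENSMUSG00000000567, chr11:112782224-112787760, plus strand) encodes a transcription factor of the developing nephron that regenerating tubule cells express again. It was the lowest of the 10 in both saline groups. Sox9 read 2.71, 2.71 and 9.81 FPKM in EtOH4hLPS and 5.78, 12.6 and 6.18 FPKM in PF4hLPS, against 0.0972, 0.0975 and 0.0959 FPKM in EtOH and 0.12, 0.061 and 0.134 FPKM in PF. Its highest values came from EtOH4hLPS replicate 3 and PF4hLPS replicate 2. On the log2 scale the fold change was 2.27 ± 0.38 (adjusted p = 0.00128) in ethanol-fed mice and 2.98 ± 0.38 (adjusted p = 0.000152) in pair-fed mice, and the added 1 FPKM makes both an understatement at levels this low.

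The cytoskeletal and membrane-linked markers gave other values. Krt8 and Krt18 encode the keratin pair of simple epithelia, whose filaments thicken in stressed tubule cells. Krt8 (ENSMUSG00000049382, chr15:101996698-102004482, minus strand) had 11.1, 24.4 and 21.4 FPKM in EtOH4hLPS and 19.3, 7.97 and 14.7 FPKM in PF4hLPS, against 16.8, 22.5 and 13.2 FPKM in EtOH and 12.5, 19.2 and 21.1 FPKM in PF. The groups overlapped throughout. The log2 fold change with LPS was 0.07 in ethanol-fed mice (95% CI -0.70 to 0.85, adjusted p = 0.933) and -0.36 in pair-fed mice (95% CI -1.13 to 0.42, adjusted p = 0.531). In ethanol-fed mice its sign turned with the scaling and with the library left out.

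Krt18 (ENSMUSG00000023043, chr15:102028180-102032027, plus strand) read 2.52, 7.32 and 8.38 FPKM in EtOH4hLPS and 10.4, 2.68 and 6.75 FPKM in PF4hLPS, against 3.72, 3.29 and 2.45 FPKM in EtOH and 1.55, 4.47 and 3.32 FPKM in PF. In each LPS group 2 of the 3 libraries lay above all saline libraries, and the other lay among them. Its log2 fold change was 0.66 in ethanol-fed mice (95% CI -0.34 to 1.66, adjusted p = 0.396) and 0.81 in pair-fed mice (95% CI -0.19 to 1.81, adjusted p = 0.254).

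Anxa2 (ENSMUSG00000032231, chr9:69453620-69491795, plus strand) encodes annexin A2, a calcium-dependent membrane protein that, with S100A10, binds plasminogen and its activator at the cell surface. It had 17.5, 39.0 and 37.0 FPKM in EtOH4hLPS and 46.9, 21.1 and 45.2 FPKM in PF4hLPS, against 14.5, 19.7 and 12.9 FPKM in EtOH and 14.4, 18.0 and 18.8 FPKM in PF. PF4hLPS did not overlap PF, whereas EtOH4hLPS replicate 1 lay within the EtOH range. With LPS the log2 fold change was 0.89 in ethanol-fed mice (95% CI 0.13 to 1.64, adjusted p = 0.11) and 1.03 in pair-fed mice (95% CI 0.27 to 1.78, adjusted p = 0.0611). Groups that did not overlap, with LPS higher, were seen for 7 of 10 markers in ethanol-fed mice, where 18.8% of tested genes were of this kind, and for 8 of 10 in pair-fed mice, where 18.5% were.

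The 3 markers that missed the threshold were low in the same pair of LPS libraries. EtOH4hLPS replicate 1 was the lowest of its group for 9 of 10 markers, all but Sox9, and for 39% of tested genes. PF4hLPS replicate 2 was the lowest for 8 of 10, all but Sox9 and Cd44, and for 38.9% of tested genes. These are the LPS libraries with the steep GC trend. Transcripts of Krt8 and Krt18 have a mean GC content of 57.1% and 56.4%, the highest of the 10, and those of Havcr1 have 44.2%, the lowest. The part of GC content in these values was not tested.

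With the 3 libraries of steep GC trend left out, a choice made after seeing the data, 9 of 10 markers rose in both diets, all but Krt8. Anxa2 then had log2 fold changes of 1.24 in ethanol-fed mice (adjusted p = 0.00129) and 1.28 in pair-fed mice (adjusted p = 0.00253). Krt18 had 1.10 in ethanol-fed mice (adjusted p = 0.00659) and 0.95 in pair-fed mice (adjusted p = 0.0278). Among all tested genes, 1806 rose in ethanol-fed and 1417 in pair-fed mice without these libraries, against 1504 and 1589 with them.

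**Figure D3:**
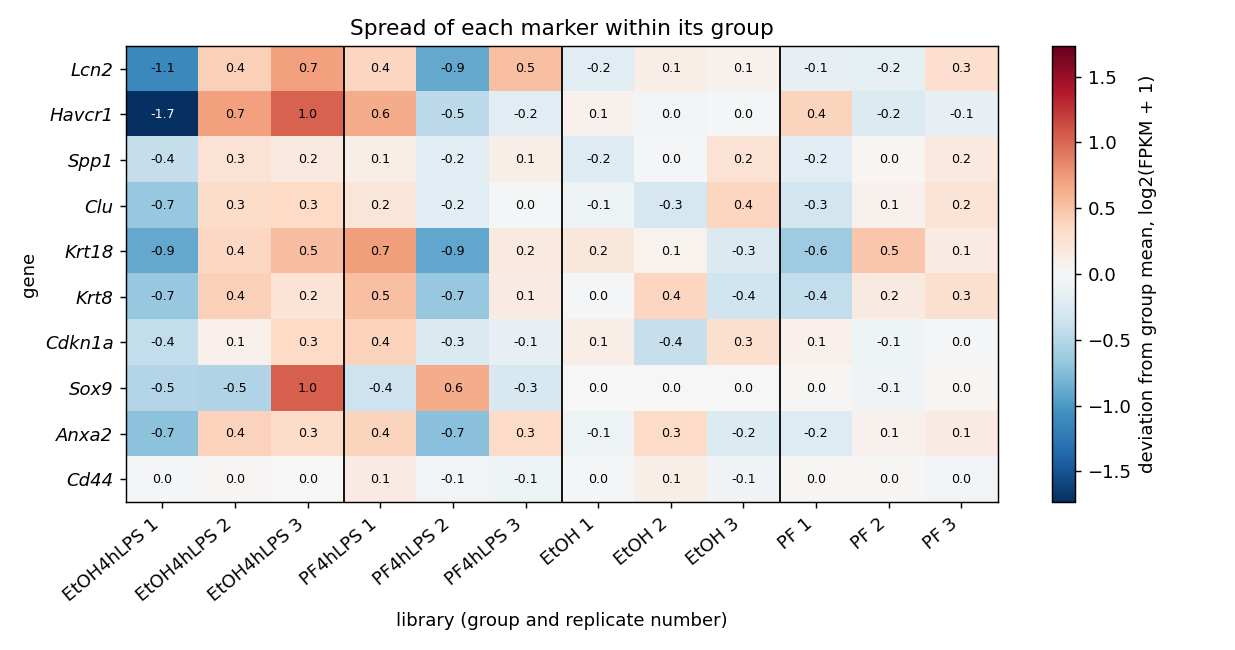
Deviation of each marker from its group mean in each of the 12 libraries, in log2(FPKM + 1), with blue below and red above the mean. The columns of EtOH4hLPS replicate 1 and PF4hLPS replicate 2 are blue for most markers, Sox9 is red in PF4hLPS replicate 2, and the row of Cd44 is near 0 in every library.

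The ethanol diet was not followed by a change of any of the 10 past the threshold. Without LPS, 0 of 10 markers passed between EtOH and PF, where 0.0284% of tested genes passed in either direction (4 of 14109 genes), and 0 markers had an unadjusted p under 0.05, against 521 of all tested genes (limma). Spp1 was higher in every EtOH library than in every PF library, at 378 ± 61.9 FPKM against 266 ± 32.8 FPKM (SD, n = 3 each). Its log2 fold change was 0.50 with a 95% CI of -0.01 to 1.02. Havcr1 was lower in every EtOH library, at 0.501 ± 0.0719 FPKM against 1.28 ± 0.555 FPKM in PF, with a log2 fold change of -0.58 (95% CI -1.90 to 0.75). These were the 2 markers whose groups did not overlap, and 12.6% of all tested genes had groups that did not overlap in this comparison.

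With LPS in both groups, Havcr1 was at 18.6 ± 13.5 FPKM in EtOH4hLPS and 41.7 ± 17.7 FPKM in PF4hLPS. The log2 fold change of -1.45 (95% CI -2.77 to -0.12, adjusted p = 0.426) was the largest of the 10 in size with all libraries. Without EtOH4hLPS replicate 1 it was -0.58, smaller in size than those of Krt8 (0.75), Cdkn1a (0.66) and Spp1 (0.59). The highest EtOH4hLPS library (29.1 FPKM) lay just above the lowest PF4hLPS library (28.6 FPKM). Sox9 had a log2 fold change of -0.72 (95% CI -1.54 to 0.11), Cdkn1a of 0.44 (95% CI -0.10 to 0.99) and Spp1 of 0.38 (95% CI -0.13 to 0.89). For Lcn2 the difference was -0.12 (95% CI -1.13 to 0.89), and its sign turned with the scaling and with the library left out. In this comparison 0 of 10 markers passed, where 0.0992% of tested genes did. For 0 of 10 markers did the groups not overlap, as they did not for 10.9% of tested genes. Havcr1 was the 1 marker with an unadjusted p under 0.05, against 1524 of all 14109 tested genes, a share close to that of the markers.

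Averaged over both LPS states, ethanol against pair-feeding gave a log2 fold change of -1.01 for Havcr1 (95% CI -1.95 to -0.08, adjusted p = 0.469) and of 0.44 for Spp1 (95% CI 0.08 to 0.80, adjusted p = 0.389). These 2 of 10 had an unadjusted p under 0.05, against 1334 of all 14109 tested genes, 0 of 10 passed after adjustment in limma, and 0.319% of tested genes did. Without EtOH4hLPS replicate 1 the Havcr1 value was -0.58.

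**Figure D4:**
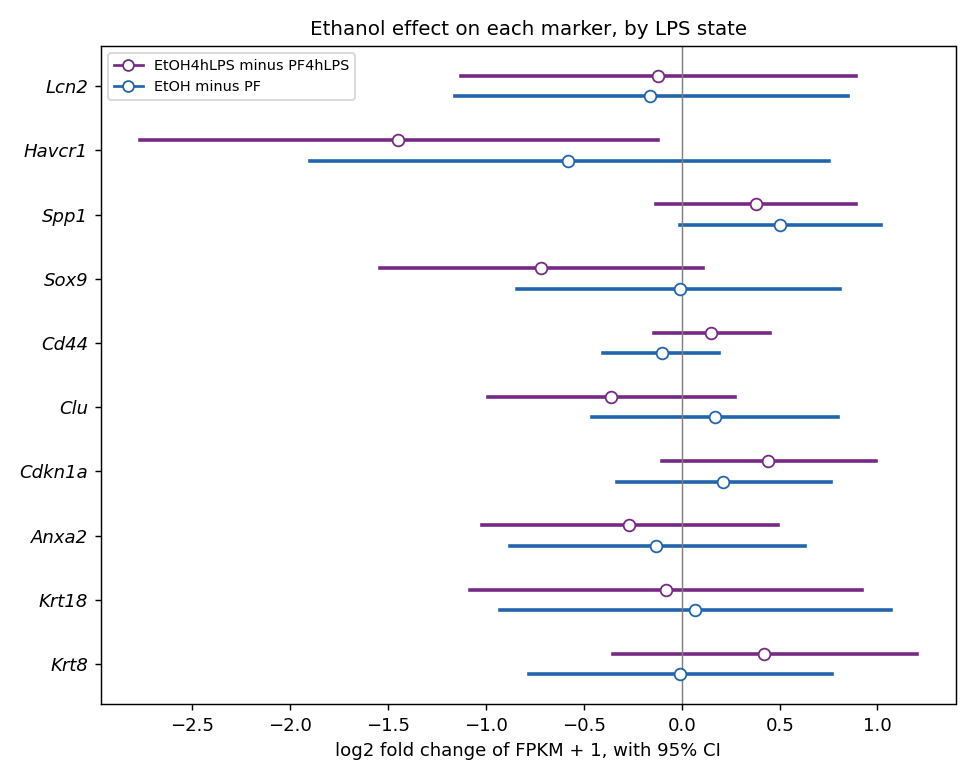
Log2 fold change of FPKM + 1 with ethanol for each marker, with its 95% confidence interval, for EtOH4hLPS minus PF4hLPS and EtOH minus PF, where open points did not pass the adjusted p of 0.05. All points are open, and Havcr1 after LPS lies farthest from 0, at -1.45.

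Whether the LPS response of a marker depended on diet was asked with the interaction of diet and LPS. It passed for 0 of 10 markers, where 0.0284% of tested genes passed, and 0 markers had an unadjusted p under 0.05, against 616 of all tested genes (limma). The difference between the LPS responses, ethanol-fed minus pair-fed, was -0.87 for Havcr1 (95% CI -2.74 to 1.00), -0.71 for Sox9 (95% CI -1.88 to 0.46), -0.53 for Clu (95% CI -1.42 to 0.36) and 0.04 for Lcn2 (95% CI -1.39 to 1.46). The narrowest interval belonged to Cd44, at 0.25 (95% CI -0.16 to 0.67). Spp1 was at -0.12 (95% CI -0.84 to 0.60) and Cdkn1a at 0.23 (95% CI -0.54 to 1.00). The other intervals reach beyond 1 log2 unit in at least 1 direction and so include differences of that size.

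Calls in the gene lists below stand beside shares over all tested genes of 10.7% higher and 6.39% lower in ethanol-fed mice. In pair-fed mice these shares were 11.3% and 6.89%. Several partner genes of Lcn2 and Anxa2 rose with LPS. Of 12 tested genes in this list, 5 rose and 0 fell with LPS in ethanol-fed mice and 6 rose and 1 fell in pair-fed mice, with a median log2 fold change of 0.69 and 0.73. S100a10, the light chain of the annexin A2 complex, rose to 401 ± 152 FPKM in EtOH4hLPS against 129 ± 5.33 FPKM in EtOH (adjusted p = 0.00747) and to 338 ± 149 FPKM in PF4hLPS against 117 ± 6.02 FPKM in PF (adjusted p = 0.0122). Anxa1 (log2 fold change 2.30 in ethanol-fed and 2.22 in pair-fed mice), the tissue plasminogen activator gene Plat (1.76 and 1.46) and the urokinase receptor gene Plaur (2.29 and 1.68) also rose in both diets. The gene that fell was Plau, which encodes urokinase, at 84.0 ± 30.8 FPKM in PF4hLPS against 210 ± 51.4 FPKM in PF (log2 fold change -1.35, adjusted p = 0.0186). In ethanol-fed mice Plau was at 236 ± 117 FPKM in EtOH4hLPS against 128 ± 12.7 FPKM in EtOH, the opposite direction, with groups that did not overlap and a log2 fold change of 0.77 that did not pass (adjusted p = 0.167). The interaction for Plau was 2.12 and did not pass either (adjusted p = 0.846). Receptors of lipocalin did not pass the test in either diet. Slc22a17 had log2 fold changes of -0.21 and -0.54 (adjusted p = 0.583 and 0.101), and Lrp2, which encodes the endocytic receptor megalin, had 0.20 and -0.43 (adjusted p = 0.647 and 0.239).

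Among receptors of osteopontin and partners of CD44, 3 of 11 tested genes rose and 0 fell in ethanol-fed mice and 6 rose and 1 fell in pair-fed mice, with a median log2 fold change of 0.65 and 0.60. The integrin alpha V gene Itgav rose to 157 ± 23.4 FPKM in EtOH4hLPS against 76.9 ± 10.9 FPKM in EtOH and to 126 ± 22.4 FPKM in PF4hLPS against 76.1 ± 4.81 FPKM in PF. Ezr and Msn encode ezrin and moesin, which tie CD44 to actin, and both rose in both diets, by log2 fold changes of 0.91 and 0.91 for Ezr and 0.79 and 0.99 for Msn. Itgb8 had log2 fold changes of 0.95 in ethanol-fed mice (adjusted p = 0.0617) and 1.08 in pair-fed mice (adjusted p = 0.0337). The hyaluronan synthase genes Has1 and Has2 did not pass the filter on low values. In the list of other receptors of the Havcr1 family and for dying cells, Timd2 rose in both diets (log2 fold change 0.93 and 1.40), Axl rose in ethanol-fed mice (1.40, adjusted p = 0.0262) and had 0.87 in pair-fed mice (adjusted p = 0.145), and the other 3 of 5 tested genes did not pass in either diet.

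Targets of p53 and genes of cell cycle arrest rose in part with Cdkn1a. Of 18 tested genes, 9 rose in ethanol-fed and 8 in pair-fed mice and 0 fell in either, with a median log2 fold change of 0.59 and 0.50. Plk3, a stress-activated kinase gene, was at 32.3 ± 19.7 FPKM in EtOH4hLPS and 25.1 ± 6.15 FPKM in PF4hLPS, against 0.63 ± 0.161 FPKM in EtOH and 0.779 ± 0.458 FPKM in PF. The antiproliferative gene Btg2 had log2 fold changes of 4.13 and 2.73, the growth arrest gene Gadd45a of 2.66 and 1.91, and Gadd45b of 2.34 and 1.83. Mdm2, which encodes the ubiquitin ligase that p53 induces and that degrades it, rose by 1.45 in ethanol-fed mice (adjusted p = 5.37e-05) and 1.15 in pair-fed mice (adjusted p = 0.000343). Trp53 itself had 0.42 (adjusted p = 0.412) and -0.11 (adjusted p = 0.833). Of the list, 9 genes in ethanol-fed and 10 in pair-fed mice did not pass. Among those that passed in neither diet, Bax had -0.71 and -0.38, Phlda3 -0.65 and -0.26, and Zmat3 -0.38 and -0.37. Sesn2 had 0.13 and 0.13, and Aen 0.05 and 0.18.

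**Figure D5:**
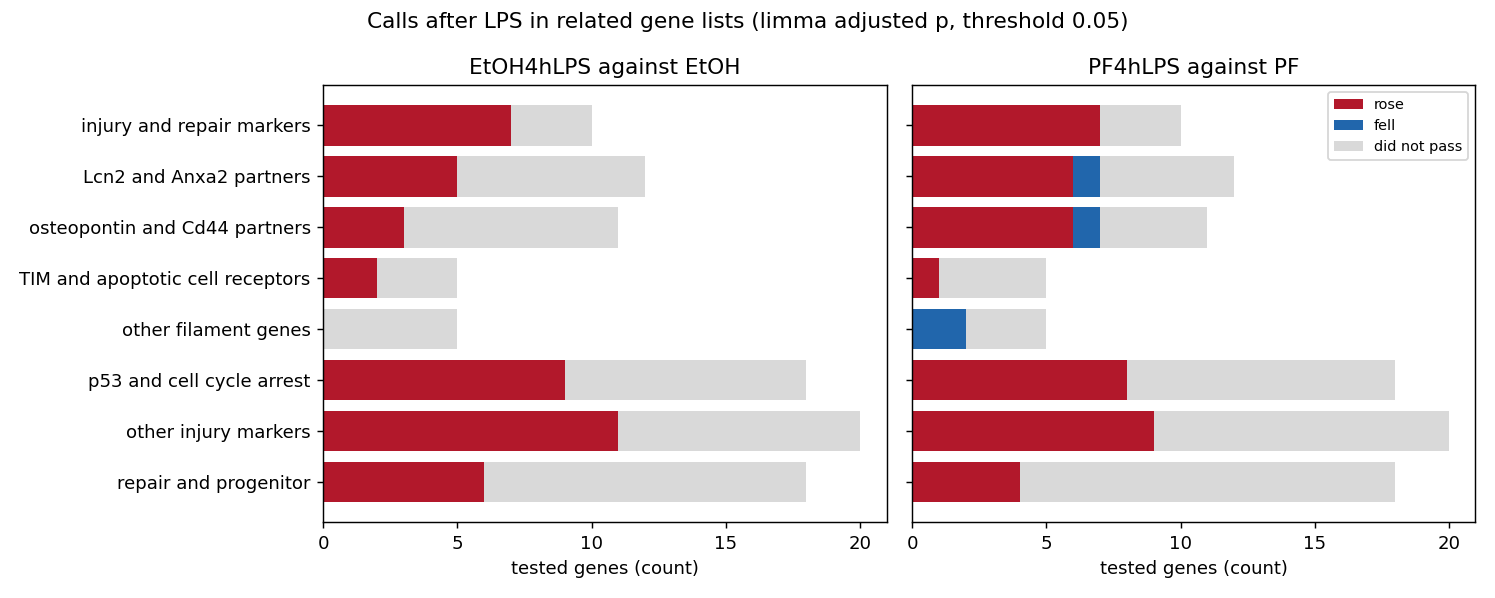
Number of tested genes that rose, fell or did not pass (limma adjusted p of 0.05) in the marker set and in 7 related gene lists, in EtOH4hLPS against EtOH and PF4hLPS against PF. The 10 markers gave 7 calls in each diet, and the 18 genes of p53 and cell cycle arrest gave 9 and 8.

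Of 20 other tested injury markers, 11 rose in ethanol-fed and 9 in pair-fed mice and 0 fell, with a median log2 fold change of 1.24 and 1.20. The adhesion molecule gene Vcam1 was at 108 ± 21.4 FPKM in EtOH4hLPS and 79.6 ± 1.5 FPKM in PF4hLPS, against 3.04 ± 0.891 FPKM in EtOH and 3.13 ± 0.462 FPKM in PF. Which cells carried it was not tested. The stress transcription factor gene Atf3 had log2 fold changes of 4.70 in ethanol-fed and 3.95 in pair-fed mice, and the haem oxygenase gene Hmox1 of 4.45 and 2.26. Of 18 tested genes of repair and progenitor cells, 6 rose in ethanol-fed and 4 in pair-fed mice and 0 fell, with a median of 0.40 and 0.50. Hbegf, which encodes an EGF receptor ligand, had 2.63 and 1.24, the receptor gene Egfr 1.21 and 0.90, and the progenitor surface gene Cd24a 0.86 and 1.49. Pax8, a nephron lineage factor gene, rose in ethanol-fed mice (1.13, adjusted p = 0.0203) and had 0.30 in pair-fed mice (adjusted p = 0.533). In this list the proliferation gene Top2a passed in ethanol against pair-feeding over both LPS states, with a log2 fold change of -0.81 (limma adjusted p = 0.0446). Top2a averaged 1.21 ± 0.548 FPKM in EtOH4hLPS against 3.27 ± 0.772 FPKM in PF4hLPS. Without LPS it averaged 0.897 ± 0.168 FPKM in EtOH against 2.02 ± 0.418 FPKM in PF. These levels are near the filter of 1 FPKM.

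Of 5 other tested genes of intermediate filaments, 0 rose with LPS in either diet, and 2 fell in pair-fed mice, Nes and Des. Krt20, a keratin gene of damaged tubule cells, ranged over 0.206 to 17.6 FPKM in EtOH4hLPS and 0.978 to 3.96 FPKM in PF4hLPS, against 0.0246 to 0.191 FPKM in EtOH and 0.0232 to 0.206 FPKM in PF. Its log2 fold changes were 2.39 (adjusted p = 0.0786) and 1.5 (adjusted p = 0.241). Krt19 did not pass the filter on low values.

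Markers of other cells moved beside these results. Neutrophils and monocytes carry Lcn2 and Cd44 of their own. Of 11 tested genes of these cells, 6 rose and 1 fell in ethanol-fed mice and 9 rose and 1 fell in pair-fed mice. The 14 listed genes summed to 177 to 270 FPKM in EtOH4hLPS and 201 to 442 FPKM in PF4hLPS, against 7.31 to 12.1 FPKM in EtOH and 8.67 to 12.7 FPKM in PF. S100a8 and S100a9 made up most of the sums in the LPS groups. Ngp and Ltf, other genes of this list picked after their values were seen, averaged 2.88 and 3.09 FPKM in EtOH4hLPS. In PF4hLPS they averaged 3.50 and 4.49 FPKM. Ly6g was under 1 FPKM in every library. The part of these cells in the rise of the markers was not tested.

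Of 10 tested macrophage and dendritic cell genes, 0 rose in ethanol-fed mice and 1, Lyz2, in pair-fed mice, with no fall, and their sums overlapped between groups. Of 11 lymphocyte genes 10 were under 1 FPKM in every library. Endothelial genes moved the other way, with 7 of 10 lower and 1 higher in ethanol-fed mice and 8 lower and 1 higher in pair-fed mice. The angiopoietin receptor gene Tek had log2 fold changes of -2.48 and -2.55. Of 12 genes of differentiated proximal tubule, 0 passed in ethanol-fed mice and 1 fell in pair-fed mice, the organic anion transporter gene Slc22a8, at 36.7 ± 16.1 FPKM in PF4hLPS against 69.9 ± 15.6 FPKM in PF. In the thick ascending limb and distal tubule list 1 of 8 genes rose and 1 fell in each diet, and Kcnj1, which encodes a potassium channel, had -0.94 and -0.98. In the collecting duct list 0 of 8 rose, and 1 fell in ethanol-fed and 2 in pair-fed mice, Slc4a1 in both (-1.14 and -1.57) and the water channel gene Aqp3 in pair-fed mice (-1.19). In the stromal list 1 of 10 rose, the proteoglycan gene Dcn (1.10 and 1.01), and 1 fell in each diet. In the podocyte and parietal cell list 1 of 7 rose in ethanol-fed and 1 fell in pair-fed mice. Of 2 tested urothelial genes 0 passed. Over all tested genes 10.7% rose and 6.39% fell in ethanol-fed mice, and 11.3% rose and 6.89% fell in pair-fed mice. Lists with 1 gene called in a direction are near these shares and are not read as a change of those cells.

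For each marker the 2 protein-coding genes with the most similar pattern were taken by Pearson r of log2(FPKM + 1) over the 12 libraries. The libraries share the split by LPS, so r is given as a description. Lcn2 was closest to Saa1, an acute phase protein gene (r = 0.998), and to Oasl2, an interferon-induced gene (r = 0.997). Cd44 was closest to Cd274 and Ccl2 (r = 0.998 each), which encode an immune checkpoint ligand and a monocyte chemokine, and Spp1 to Rhob (r = 0.996) and Klf6 (r = 0.993). Clu was closest to Zbtb16 (r = 0.989) and the fibrinogen gene Fgb (r = 0.988). Havcr1 was closest to Tm4sf20 (r = 0.990) and Ido1 (r = 0.981), Cdkn1a to Elovl6 and Apaf1 (r = 0.991 each), and Sox9 to F830016B08Rik and Trim30c (r = 0.976 each).

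Krt8 was closest to Myo1c (r = 0.974) and Slc38a10 (r = 0.959), and Myo1c averaged 14.8 FPKM in EtOH4hLPS and 10.3 FPKM in PF4hLPS, against 13 FPKM in EtOH and 14.3 FPKM in PF. Krt18 was closest to Slc25a22 (r = 0.967) and Spint2 (r = 0.931). Anxa2 was closest to Efhd2 and Tmsb10 (r = 0.960 each), and Tmsb10, which encodes an actin-binding thymosin, averaged 28.5 FPKM in EtOH4hLPS and 34.8 FPKM in PF4hLPS, against 9.5 FPKM in EtOH and 9.9 FPKM in PF.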

How the data were processed

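RNA of kidney cortex was measured in 12 libraries, 3 in each of 4 groups taken from the sample titles. The libraries came from total RNA with a stranded kit that removes ribosomal RNA, per the labels' protocols. The authors deposited 1 table of FPKM for 47719 Ensembl genes, and the submitters' processing notes name Cuffdiff 2.1.1 and Cufflinks 2.2.1 with Cuffnorm, TopHat2 2.0.4, FastQC 0.10.1 and build mm10. Strand setting and annotation release were not given there or in the labels. FPKM are not counts, so no count model was run, and depth is known only relative to 1 library, from steps between low values that 27.3 to 33.4% of low genes shared. Symbols and coordinates are from GENCODE M21 (GRCm38, also called mm10), which matched 47219 identifiers, and promoter windows are from RefSeq (GRCm38.p6).

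The 14109 genes that reached 1 FPKM in 3 or more libraries were tested as log2(FPKM + 1) in limma 3.58.1 (R 4.3.3), with 1 mean per group over all 12 libraries, a variance trend and a robust prior. Fold changes are on that scale and understate changes of low genes. Tests were two-sided, with Benjamini-Hochberg adjustment over the tested genes of each comparison, and the code was tested on simulated data. The series design names 5 comparisons, and the interaction was added. An exact permutation test of 3 against 3 libraries cannot go below p = 0.1, so none is given.

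The 10 markers and the other 17 gene lists (213 entries) were chosen with earlier results of these data known. From each list up to 4 genes were named, those with the largest LPS fold change of those that passed, had groups without overlap and had a higher mean of at least 5 FPKM. Genes past the threshold in a diet comparison, direct partners of a marker and the 2 genes most like each marker were added. Some genes that this rule takes are not reported here. Plau, Nes, Des, Ngp, Ltf, Ly6g, Bax, Phlda3, Zmat3, Sesn2 and Aen were chosen after their values were seen. Alternatives were a pseudocount of 0.1, no filter, protein-coding genes alone, 3 scalings, a replicate block, fits on 2 groups, no trend or robust prior, array weights and leaving out each library.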

Additional observations from a re-analysis of the deposited data

How the results depend on the processing

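The 7 markers that rose with LPS rose under every alternative run in both diets, and the count of markers that rose lay between 7 and 9. It was 8 in both diets with array weights, without EtOH4hLPS replicate 1 and without PF4hLPS replicate 2, and 8 in pair-fed mice with protein-coding genes alone, the addition in each case being Anxa2, and 9 in both diets with the 3 libraries of steep GC trend left out. No marker fell with LPS, and 0 of 10 passed in the diet comparisons or the interaction, under any alternative. Leaving out each library in turn gave 7 to 8 markers in both diets. Anxa2 in pair-fed mice then passed without EtOH4hLPS replicate 1 (1.03, adjusted p = 0.0281) or PF4hLPS replicate 2 (1.39, adjusted p = 0.0105), and in ethanol-fed mice without them at 1.24 (adjusted p = 0.0189) and 0.89 (adjusted p = 0.046).

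Over all settings the log2 fold change of Lcn2 ranged from 6.53 to 8.69 in ethanol-fed and 6.46 to 8.35 in pair-fed mice, that of Havcr1 from 2.80 to 4.49 and 3.77 to 4.91, and that of Sox9 from 1.76 to 4.44 and 2.66 to 5.26, with the high ends from a pseudocount of 0.1. No pairing of the libraries by replicate number was seen. Same-numbered libraries deviated together at r of -0.206 to 0.279 over 18 pairs, 5 of them above 0.1. Of 12 libraries, 3 were closest to their own number. With 3 libraries a group this check can miss a pairing, so it does not show that none existed. With the replicate block 7 markers rose in each diet and 0 passed elsewhere. Scaling to an equal total FPKM shifted the all-gene median to -0.264 in ethanol-fed and -0.405 in pair-fed mice, and gave 972 higher and 1781 lower genes in ethanol-fed and 858 higher and 2590 lower genes in pair-fed mice, against 1504 and 902, and 1589 and 972, with 7 markers higher in each diet relative to that shift.

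Over all settings the number of tested genes that fell with LPS ranged from 522 (without EtOH4hLPS replicate 2) to 1781 in ethanol-fed and from 472 (without PF replicate 2) to 2590 in pair-fed mice. Genes higher and lower for EtOH against PF numbered 2 and 2, and 96 and 146 with array weights. For EtOH4hLPS against PF4hLPS they numbered 5 and 9, with ranges of 1 to 19 and 0 to 27, over both states 14 and 31, with ranges of 3 to 38 and 4 to 60, and for the interaction 2 and 2, with ranges of 0 to 10 and 0 to 8.

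Signs turned for values that did not pass, and the cause was not tested. With equal total FPKM these were Krt8 with LPS in ethanol-fed mice (-0.25), Krt8 for EtOH against PF (0.09), Lcn2 (0.14) and Krt18 (0.12) for EtOH4hLPS against PF4hLPS, Clu (0.08) and Krt18 (0.13) for ethanol over both states, and Spp1 (0.04) and Anxa2 (0.02) for the interaction. Quantile normalization turned Krt8 with LPS in ethanol-fed mice (-0.14), Krt8 (0.01) and Sox9 (0.11) for EtOH against PF and Lcn2 for the interaction (-0.03), and median-ratio size factors turned Krt8 for EtOH against PF (0.00) and Krt18 over both states (0.01). A pseudocount of 0.1 turned Krt18 (0.01) and Cd44 (-0.03) over both states. Array weights turned Krt18 (-0.28) and Sox9 (0.04) for EtOH against PF, Lcn2 for EtOH4hLPS against PF4hLPS (0.01), Cd44 over both states (-0.01), and Spp1 (0.01) and Krt18 (0.13) for the interaction. Without the 3 libraries of steep GC trend, Krt18 (-0.24) and Sox9 (0.00) turned for EtOH against PF, and Spp1 (0.08) and Krt18 (0.15) for the interaction.

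Leaving out 1 library at a time gave ranges across 0 for Krt8 with LPS in ethanol-fed mice (-0.14 to 0.40), for Clu (-0.02 to 0.31), Krt18 (-0.24 to 0.31), Krt8 (-0.22 to 0.17) and Sox9 (-0.04 to 0.01) in EtOH against PF, for Lcn2 (-0.57 to 0.44), Krt18 (-0.53 to 0.36) and Anxa2 (-0.63 to 0.09) in EtOH4hLPS against PF4hLPS, for Lcn2 (-0.36 to 0.14), Clu (-0.19 to 0.07) and Krt18 (-0.23 to 0.22) over both states, and for Lcn2 (-0.41 to 0.60), Spp1 (-0.25 to 0.09), Krt18 (-0.60 to 0.29) and Anxa2 (-0.50 to 0.22) in the interaction. Havcr1 for EtOH4hLPS against PF4hLPS ranged from -1.96 to -0.58, with -0.58 without EtOH4hLPS replicate 1. With 3 libraries a group and depth known only in relative terms, diet differences smaller than the intervals given may have gone undetected.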
